A study of Homo sapiens with 8 samples.

Results

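The compounds compared here are the triphenylphosphonium salts 1-SO and 1-S, each given at 10 µM to MDA-MB-231 cells that were then irradiated with UV-A. They differ by 1 named change in structure: by the series title, 1-SO carries an oxo group on the sulfur of its dibenzothiophene and 1-S does not. The comparison uses 4 of the 8 libraries of the series: 1-SO with UV-A and 1% DMSO vehicle with UV-A from round 1, and 1-S with UV-A and 1% DMSO vehicle with UV-A from round 2. For every gene, the change from the irradiated vehicle of the same round was taken for each compound on log2(FPKM + 1), and the change with 1-S was subtracted from the change with 1-SO. FPKM is a fragment count scaled by the length of the gene and the depth of the library.

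MDA-MB-231 is an established triple-negative breast cancer line. The wells held 600000 cells, were incubated for 24 h with compound or vehicle, and either received 30 min of light from 8 bulbs (325 to 375 nm) or were kept in the dark under foil on a second plate. The 6 groups of the series are vehicle in the dark (2 libraries, 1 per round), vehicle with UV-A (2 libraries, 1 per round), 1-SO in the dark, 1-SO with UV-A, 1-S in the dark and 1-S with UV-A (1 library each). The 1-SO libraries belong to round 1, with cells at passage 8, and the 1-S libraries to round 2, with cells at passage 32 to 34, so compound, round and passage cannot be told apart beyond what each round's own vehicle removes. Each compound group is 1 library, so no difference has a replicate check within a compound. The spread in the tests comes from the vehicle libraries, and nothing in the labels says that rounds were separate cultures beyond their passage numbers.

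As background, lipophilic triphenylphosphonium cations are drawn into mitochondria by the membrane potential, and dibenzothiophene S-oxides are known to release atomic oxygen when irradiated. Cells answer damage to proteins and organelles through separable transcriptional programmes. HSF1 drives the heat shock genes when cytosolic proteins misfold. ATF4 drives the integrated stress response, which restores amino acid supply and which mitochondrial stress can start. Interferon-stimulated genes answer foreign or misplaced nucleic acids, and immediate early genes answer kinase signalling within minutes.

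Depth was 15816049 to 22564754 counted reads per library, and 3 reads correspond to 0.133 to 0.19 CPM. Of 45341 gene identifiers shared by both rounds, 12696 reached 1 FPKM in at least 2 libraries and were tested. Of the 11 MDA-MB-231 markers, 10 were at 1 FPKM or above in all 8 libraries and SPARC was at 0.158 FPKM or below. Markers of other cell types stayed low: 7 of 8 keratinocyte, 5 of 7 immune and 6 of 8 fibroblast and endothelial markers were below 1 FPKM in every library, and the exceptions were KRT10, HLA-DRA, CD14, COL1A1 and PDGFRB. The summed level of the fibroblast and endothelial list was 2.75 to 3.47 FPKM in the 6 libraries without 1-S and 7.35 and 8.34 FPKM with 1-S, mostly COL1A1, and that of the keratinocyte list was 32.9 FPKM with 1-SO and UV-A against 14.0 to 21.9 elsewhere, nearly all KRT10. KRT5 and KRT1 were at 0 in all 8 libraries. These sums are set across rounds whose gene lengths differ, and the part of these markers in the results was not tested. Of the 11 luminal and epithelial markers, 6 were at 1 FPKM or above in every library and 3 below it in every library.

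Under UV-A, the compounds gave responses that overlapped in part and differed in part. A quasi-likelihood test in edgeR over all 8 libraries, with Benjamini-Hochberg adjustment over the 12696 genes and 1 pair of compounds, called 451 genes different. Of these, 163 were higher with 1-SO (1.28% of the genes tested) and 288 were lower with 1-SO (2.27%). Lower with 1-SO than with 1-S were 25 of 30 cytosolic heat shock genes, 15 of 25 immediate early genes, 8 of 21 interferon-stimulated genes, 6 of 46 mitosis genes and 3 of 13 mitochondrially encoded mRNAs, and none of these lists held a gene called higher. The split moved with the test: limma on log2(FPKM + 1) called 152 higher and 173 lower. The median 95% interval of a difference reached 0.60 to either side on the log2 scale. That interval is not adjusted for the number of genes, so a call needed a larger difference in a typical gene. On simulated counts without a light effect in the vehicles, 33 of 100 genes changed 2-fold were called, all drawn from genes averaging over 100 reads.

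Against its own irradiated vehicle, 1-SO moved fewer genes than 1-S. On log2(FPKM + 1), 185 genes were at least 2-fold higher (1.46%) and 159 at least 2-fold lower (1.25%) with 1-SO, compared with 629 (4.95%) and 388 (3.06%) with 1-S. Of the 344 genes past 2-fold with 1-SO, 171 passed 2-fold in the same direction with 1-S, which is 49.7% of the 1-SO genes and 16.8% of the 1017 1-S genes. Only 4 genes passed 2-fold in opposite directions. Across genes, the changes with both compounds correlated with Pearson's r = 0.61 and Spearman's rho = 0.61 (12696 genes, which are not independent replicates, each compound against a vehicle library of its own). In the edgeR fit, 567 genes were higher (4.47%) and 895 lower (7.05%) with 1-SO, and 1746 higher (13.8%) and 1742 lower (13.7%) with 1-S. The authors' deposited tables give 62 genes at an adjusted p under 0.05 for 1-SO with UV-A and 886 for 1-S with UV-A, each against its irradiated vehicle.

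**Figure D1:**
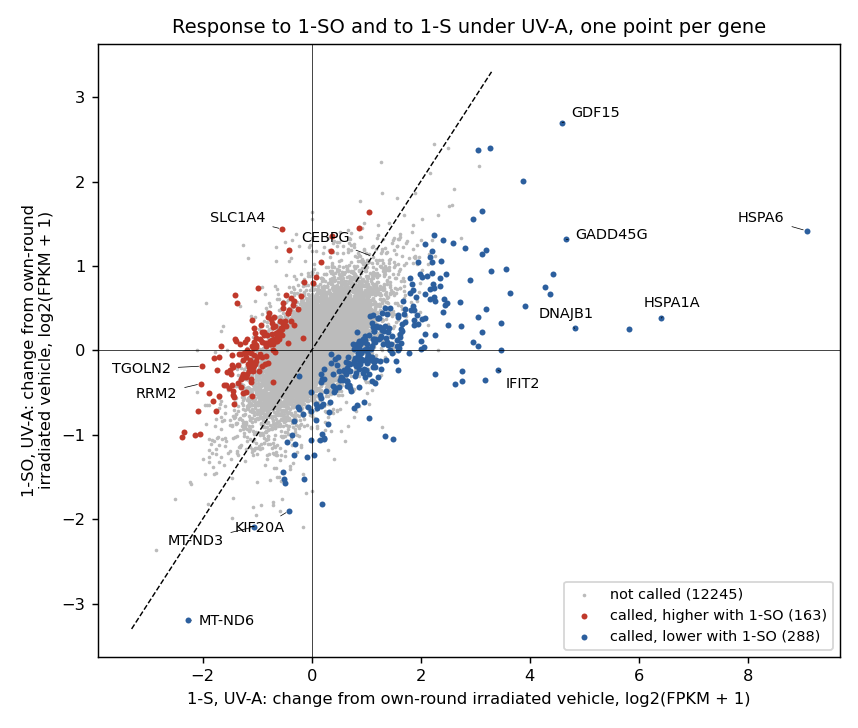
Change from the own-round irradiated vehicle, log2(FPKM + 1), with 1-S (horizontal axis) and with 1-SO (vertical axis), 1 point per gene, with red and blue for the 163 and 288 genes called higher and lower with 1-SO by edgeR and a dashed line of equal change. Heat shock genes such as HSPA6 lie far to the right with a 1-SO change of 1.42 or less, CEBPG lies near the line, and MT-ND6 is the lowest gene with 1-SO, at -3.20, and at -2.27 with 1-S.

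The most negative difference was that of a heat shock gene. HSPA6, a strictly inducible cytosolic HSP70 (chr1:161524540-161526910, GRCh38), was at 0.342 FPKM in the dark vehicle, 1.05 in the irradiated vehicle, 0.319 with 1-SO in the dark and 4.47 with 1-SO and UV-A in round 1. In round 2 it was at 1.20 and 0.892 FPKM in the dark and irradiated vehicles, 987 with 1-S in the dark and 1022 with 1-S and UV-A. Both libraries with 1-S stood far above the vehicles of their round, and 1-SO with UV-A was the highest library of round 1. The irradiated change was 4.26-fold with 1-SO and 1146-fold with 1-S, and the fitted difference was -7.22 ± 0.49 (log2, SE; edgeR adjusted p = 6.26e-11).

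The windows before the transcription start of HSPA6 and of DNAJB1, the gene of an HSP40 co-chaperone, are shown because both genes are far above vehicle with 1-S, and DNAJB1 is near its vehicle with 1-SO. They come from RefSeq (GRCh38.p14), read on the gene's strand, 5′ to 3′, and end at the start or before the first annotated exon base. The HSPA6 window is chr1:161524340-161524539 (plus strand) and the DNAJB1 window chr19:14518421-14518597 (minus strand), at 1 of the 3 starts listed for DNAJB1, the one with a match. Capitals mark matches to GAANNTTC, a pair of facing heat shock element units that reads the same on both strands.
HSPA6: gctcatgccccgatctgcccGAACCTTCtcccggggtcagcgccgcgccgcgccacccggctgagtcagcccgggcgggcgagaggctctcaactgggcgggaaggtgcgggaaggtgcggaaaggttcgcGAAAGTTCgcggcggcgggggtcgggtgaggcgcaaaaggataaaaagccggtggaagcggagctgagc
DNAJB1: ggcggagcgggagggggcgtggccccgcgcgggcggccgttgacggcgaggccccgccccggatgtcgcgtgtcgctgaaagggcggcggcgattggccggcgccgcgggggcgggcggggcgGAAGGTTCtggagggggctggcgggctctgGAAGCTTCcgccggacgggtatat
The matches begin 180 and 69 bases before the start of HSPA6 and 77 and 47 bases before that of DNAJB1. Within 200 bases before any listed start, 13 of the 26 heat shock genes with a window held this motif (50%), compared with 390 of 9033 genes tested (4.32%) and 4.5% of all 35116 windows. Among the genes called lower with 1-SO, 28 of 221 held it (12.7%), and among those called higher 6 of 120 (5%). The genes called lower include 25 of the heat shock list, so these shares overlap, and the share without that list was not computed. A match is a description of the letters, not evidence of binding.

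DNAJB1 was at 182 and 172 FPKM in the dark and irradiated vehicles of round 1 and at 169 and 206 with 1-SO in the dark and with UV-A. In round 2 it was at 88.9 and 98.0 FPKM in the vehicles, 2646 with 1-S in the dark and 2799 with 1-S and UV-A. Its fitted difference under UV-A was -4.74 ± 0.40 (log2, SE; edgeR adjusted p = 5.89e-09). HSPA1A, an inducible HSP70, was at 11.6 FPKM in the irradiated vehicle and 15.4 with 1-SO, against 8.40 and 801 in round 2. HSPA1A and HSPA1B are near-identical neighbours, so reads could have been split between them. CRYAB, a small heat shock protein, had no reads in either irradiated vehicle or with 1-SO and UV-A and 586 reads with 1-S and UV-A, at least 223-fold higher than a floor of 3 reads in its vehicle library. Its call ended with the vehicle of the own round as the only reference.

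Of the 30 cytosolic heat shock genes tested, none was called higher and 25 were called lower with 1-SO than with 1-S. The median change was 0.07 with 1-SO and 1.53 with 1-S, beside 0.07 and 0.05 over all genes tested. Against vehicle, 26 of the 30 were called higher with 1-S (13.8% of all genes tested) and 2 with 1-SO (4.47% of all genes tested), HSPA6 and DNAJB2. The abundant chaperones took part: HSP90AA1, an HSP90, was at 618 FPKM in the irradiated vehicle and 508 with 1-SO, and at 451 and 2168 in round 2. The 5 genes without a call were PTGES3, HSF2, DNAJB6, HSF1 and HSPBP1. HSF1, which encodes the regulator itself, differed by -0.10 (95% interval -0.58 to 0.39). HSPD1 and HSPE1, the mitochondrial chaperonin pair, were the 2 of 33 genes of mitochondrial transcription, chaperones and proteases that were called. HSPE1, at 25 reads in the irradiated vehicle of round 1, lost its call in DESeq2 (adjusted p = 0.662) and with the own-round vehicle as the only reference (edgeR adjusted p = 0.16). HSPD1 was at 149 and 119 FPKM with vehicle and 1-SO and at 121 and 281 with vehicle and 1-S.

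**Figure D2:**
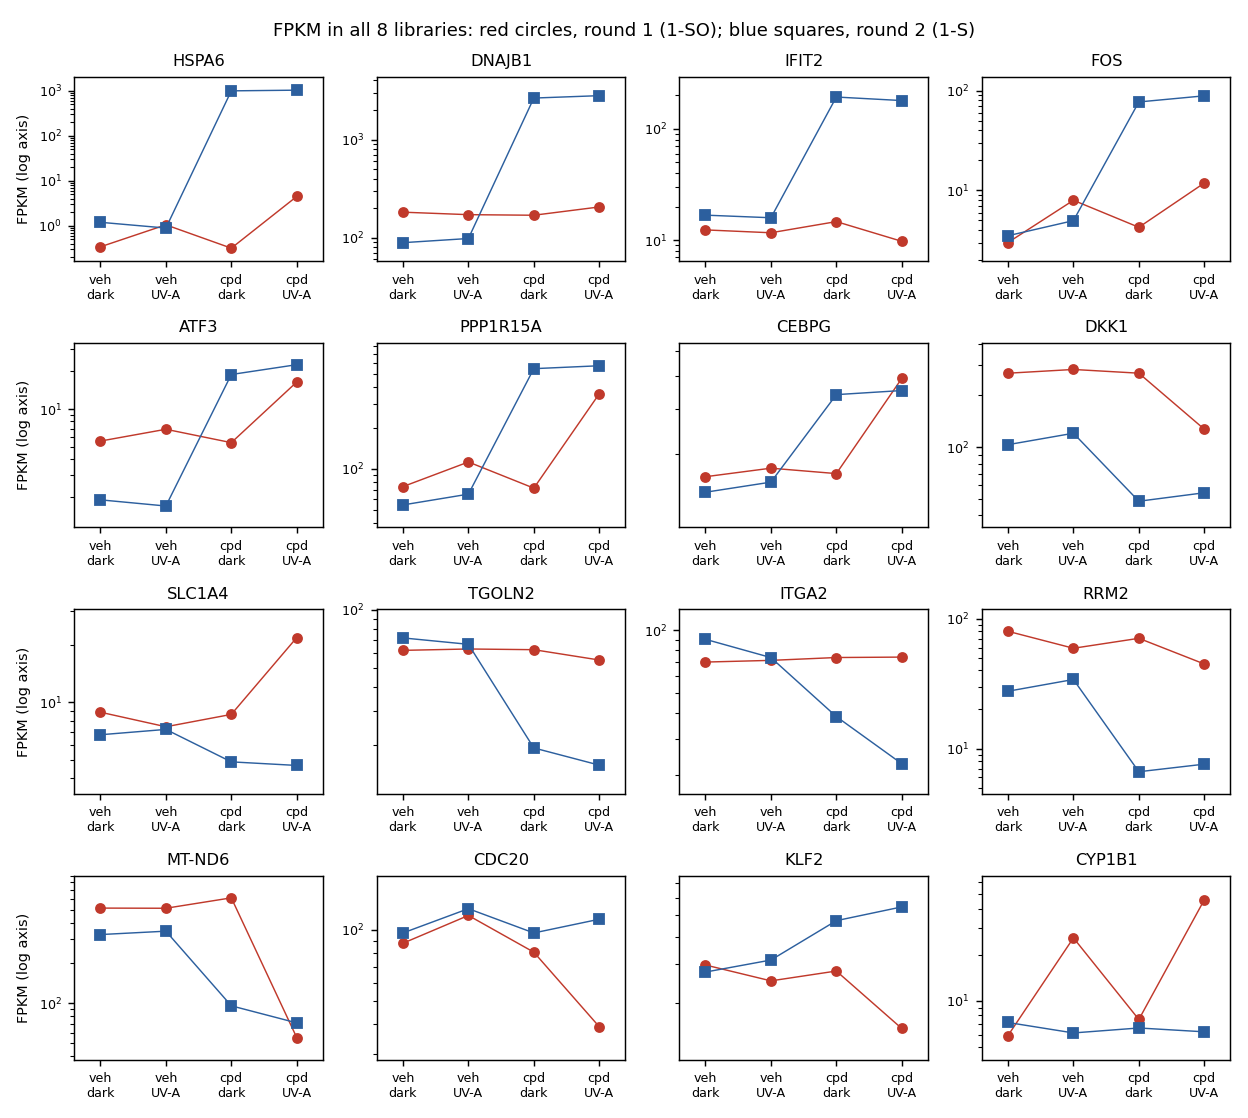
FPKM (log axis) of 16 genes in all 8 libraries, in the order dark vehicle, irradiated vehicle, compound in the dark and compound with UV-A, with red circles for round 1 (1-SO) and blue squares for round 2 (1-S); levels compare within a round. DNAJB1 and IFIT2 leave their vehicle level with 1-S only, PPP1R15A leaves it with 1-SO only under UV-A, and CDC20 is lowest in round 1 with 1-SO and UV-A, at 39.1 FPKM.

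Of the 21 interferon-stimulated genes tested, 11 were called higher with 1-S against vehicle and none with 1-SO, beside 13.8% and 4.47% of all genes tested. At the 1-SO share a list of this size would hold few calls or none. IFIT2, which binds viral RNA and limits its translation, was at 12.4, 11.7, 14.7 and 9.78 FPKM in round 1 (dark vehicle, irradiated vehicle, 1-SO in the dark, 1-SO with UV-A) and at 16.8, 15.9, 193 and 180 FPKM in the same order in round 2. Round 1 stayed between 9.78 and 14.7 FPKM, and both 1-S libraries stood above the vehicles of round 2. The fitted difference was -3.81 ± 0.25 (log2, SE; edgeR adjusted p = 5.52e-11). IFIT1, of the same family, was at 5.84 FPKM with vehicle and 4.36 with 1-SO, against 6.05 and 62.6 with vehicle and 1-S.

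The IFIT1 window, chr10:89392423-89392545 (plus strand), is shown for the element that names this gene group. Capitals mark matches to GAAANNGAA, the core of an interferon response element, searched on both strands.
IFIT1: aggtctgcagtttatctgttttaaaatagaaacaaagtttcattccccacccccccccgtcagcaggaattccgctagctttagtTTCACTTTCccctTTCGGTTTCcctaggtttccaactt
Both matches lie on the opposite strand and overlap no other motif searched. Of the 15 interferon-stimulated genes with a window, 12 held the motif (80%), compared with 5.75% of genes tested and 5.45% of all windows. Between the compounds 8 of the 21 genes were called, all lower with 1-SO: IFIT1, IFIT2, IFIT3, OASL, IFI44, IFIH1, ISG15 and RSAD2. DESeq2 called 5 of the 21. The list's median change was -0.01 with 1-SO and 0.78 with 1-S. IRF1, which encodes a factor of the pathway, differed by -0.18 (95% interval -0.74 to 0.38).

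Of the 25 immediate early genes tested, 15 were called lower with 1-SO than with 1-S and none higher, and DESeq2 called 9. FOS, a subunit of AP-1, was at 3.01, 7.97, 4.27 and 11.9 FPKM in round 1 and at 3.52, 4.98, 77.1 and 88.8 in round 2. Here the irradiated vehicle of round 1 was above its dark vehicle, and 1-SO with UV-A was above both. The fitted difference was -3.22 ± 0.29 (log2, SE; edgeR adjusted p = 1.62e-08). ARC, an activity-regulated gene, was at 9.38 and 15.5 FPKM with vehicle and 1-SO and at 2.11 and 63.3 with vehicle and 1-S. ARC lost its call in DESeq2 (adjusted p = 0.0846). The list's median change was 0.48 with 1-SO and 1.36 with 1-S. Against vehicle, 11 were called higher with 1-SO and 20 with 1-S. DUSP1, a phosphatase that turns off MAP kinases, was at 20.8 and 40.9 FPKM with vehicle and 1-SO and at 26.3 and 265 with vehicle and 1-S.

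Further genes among the 12 with the most negative difference were RGS2, SNAI1 and GADD45G. RGS2, which damps G-protein signalling, was at 5.32 and 9.61 FPKM with vehicle and 1-SO and at 1.89 and 55.3 with vehicle and 1-S. SNAI1, a repressor of epithelial genes, was at 1.65 and 3.95 FPKM in round 1 and at 0.300 and 26.9 in round 2. GADD45G, a growth arrest gene, was at 1.19 and 4.44 FPKM in round 1 and at 0.348 and 33.3 in round 2. All 3 were called higher against vehicle with both compounds in edgeR (adjusted p 0.02, 0.029 and 0.0032 with 1-SO). The irradiated vehicle of round 1 held 113, 44 and 20 reads of them. In the authors' deposited comparison of 1-SO with UV-A, none of the 3 had an adjusted p under 0.05.

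Both compounds raised genes of the integrated stress response. Of the 42 ATF4 targets and regulators tested, 34 were called higher against irradiated vehicle with 1-SO and 33 with 1-S, and none lower with either. The median change was 1.14 with 1-SO and 1.24 with 1-S. Between the compounds, 8 were called lower with 1-SO (ATF3, GDF15, DDIT3, PPP1R15A, HERPUD1, AARS, TRIB3 and NUPR1) and 2 higher (VLDLR and SLC7A11). The 2 higher calls went to 0 in DESeq2 and with median-of-ratios scaling, and the lower calls to 6 in DESeq2 and 5 in limma. ASNS, asparagine synthetase, had 1822 to 10221 reads in round 1 and 22 to 143 in round 2, a gap that the vehicles share, and without it 33 and 32 of 41 were called higher against vehicle. ATF4 itself was at 145 and 321 FPKM with vehicle and 1-SO and at 129 and 270 with vehicle and 1-S, and the fitted difference was -0.05 (95% interval -0.60 to 0.50).

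CEBPG, a partner of ATF4, was at 16.4, 17.6, 16.8 and 39.2 FPKM in round 1 and at 14.2, 15.6, 34.0 and 35.2 in round 2. Both compounds raised it under UV-A, with a difference between them of -0.09 (95% interval -0.57 to 0.39), whereas in the dark 1-SO was at the level of its vehicle and 1-S above it. Its window, chr19:33373913-33374112 (plus strand), at 1 of 2 listed starts, is shown as the ATF4-side counterpart to the heat shock windows. Capitals mark a match to TGATGNAA, an amino acid response element searched on both strands.
CEBPG: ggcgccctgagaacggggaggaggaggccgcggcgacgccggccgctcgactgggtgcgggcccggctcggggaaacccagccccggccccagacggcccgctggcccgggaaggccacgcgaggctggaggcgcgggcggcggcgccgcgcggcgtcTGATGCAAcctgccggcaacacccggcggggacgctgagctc
The match begins 42 bases before the start. Of the 30 list members with a window, 5 held the motif (16.7%), compared with 1.84% of genes tested and 2.57% of all windows.

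Among the 8 members called lower with 1-SO were GDF15, DDIT3 and PPP1R15A. GDF15, a secreted stress cytokine, was at 4.23 and 32.9 FPKM with vehicle and 1-SO and at 4.54 and 133 with vehicle and 1-S, a fitted difference of -2.08 ± 0.26 (log2, SE; edgeR adjusted p = 6.2e-06). DDIT3, the pro-apoptotic factor CHOP, was at 5.16 and 23.7 FPKM in round 1 and at 3.23 and 61.1 in round 2. PPP1R15A, the phosphatase subunit GADD34 that ends the response, was at 112 and 356 FPKM in round 1 and at 65.1 and 573 in round 2. Members without a call included PCK2 and PSAT1. PCK2, a mitochondrial enzyme of gluconeogenesis, differed by 0.00 (95% interval -0.52 to 0.53). PSAT1, of serine synthesis, was at 69.6 and 257 FPKM in round 1 and at 69.1 and 171 in round 2, a difference of 0.29 (-0.25 to 0.83). HMOX1, haem oxygenase and an NRF2 target, was at 8.92 and 28.3 FPKM with vehicle and 1-SO and at 6.61 and 58.5 with vehicle and 1-S (difference -1.49, edgeR adjusted p = 0.000916).

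The mRNAs encoded in the mitochondrial genome were below vehicle with both compounds. All 13 were below vehicle in each compound's irradiated library, by 0.90 to 3.20 with 1-SO and by 0.34 to 2.27 with 1-S on log2(FPKM + 1), and the 1-SO value was the lower of the pair for all 13. The median was -1.55 with 1-SO and -0.69 with 1-S. Against vehicle, 12 were called lower with 1-SO and 6 with 1-S. Between the compounds 3 were called, all lower with 1-SO: MT-ND6, MT-ND3 and MT-ND4L, subunits of respiratory complex I. With other settings that kept the round term, 1 to 6 were called, all lower with 1-SO, but not always the same genes. MT-ND6, MT-ND3 and MT-ND4L all lost their calls in limma and with the own-round vehicle as the only reference. MT-ND6 and MT-ND4L also lost theirs in DESeq2. The direction was kept each time.

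MT-ND6 was at 514, 513, 614 and 55.1 FPKM in round 1 and at 326, 345, 95.3 and 71.0 in round 2. It is the 1 member read from the light strand, the files do not say whether counting used strand, and so reads of the opposite strand cannot be told apart. MT-CO1, a subunit of complex IV, was at 5395 and 1855 FPKM with vehicle and 1-SO and at 3941 and 2320 with vehicle and 1-S, a difference of -0.71 that did not pass (95% interval -1.59 to 0.18). Mitochondrial genes took 2.76% of reads in the irradiated vehicle and 0.93% with 1-SO, and 2.42% and 1.4% with vehicle and 1-S. Less mitochondrial RNA per cell and fewer mitochondria per cell cannot be told apart here. Of the 70 nuclear-encoded subunits of the respiratory chain, edgeR and DESeq2 called 0 between the compounds. Over all genes tested, edgeR called 1.28% higher and 2.27% lower. An unadjusted edgeR p under 0.05 was found in 0 of the 70 and in 1906 of all 12696 genes. The list's median change was 0.05 (1-SO) and -0.18 (1-S). Its own-library difference was above 0 in 60 genes and below in 10 (median 0.25), and the fitted median was 0.05. Its vehicles moved with light by a median of -0.25 in round 1 and 0.01 in round 2.

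**Figure D3:**
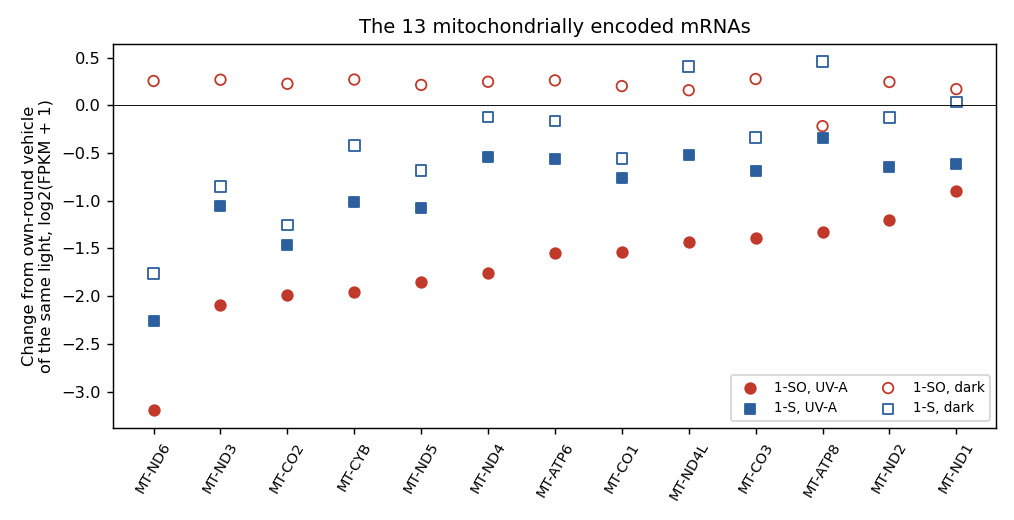
Change of the 13 mitochondrially encoded mRNAs from the own-round vehicle of the same light, log2(FPKM + 1), with 1-SO (red circles) and 1-S (blue squares), filled for UV-A and open for the dark. With UV-A all 13 are below 0 with both compounds and lower with 1-SO; in the dark 12 of the 1-SO values are above 0.

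Mitosis genes were called lower against vehicle with both compounds. Of 46, 39 were called lower against vehicle with 1-SO and 27 with 1-S, with medians of -0.87 and -0.48. PRC1 and NUSAP1 had 1047 to 1910 reads in round 1 and 7 to 65 in round 2, and without them the counts were 37 and 27 of 44. Between the compounds 6 were called, all lower with 1-SO: KIF20A, CDC20, CCNB1, PLK1, ANLN and UBE2C. CDC20, which activates the anaphase-promoting complex, was at 87.8, 115, 80.5 and 39.1 FPKM in round 1 and at 97.0, 123, 97.0 and 111 in round 2. The library with 1-SO and UV-A was the lowest of its round, and 1-S with UV-A lay between the vehicles of round 2. The fitted difference was -1.44 ± 0.24 (log2, SE; edgeR adjusted p = 0.000424). KIF20A, a kinesin of cytokinesis, was at 22.9, 48.2, 21.1 and 12.2 FPKM in round 1 and 34.0, 37.8, 25.7 and 28.1 in round 2, so part of its own-library difference of -1.49 lies in the irradiated vehicle of round 1. The list's vehicles rose with light by a median of 0.38 in round 1 and 0.15 in round 2. With the dark vehicle of each round as the reference 3 genes of the list were called, and with DESeq2 1.

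Of 43 DNA replication genes, 32 were called lower with 1-SO and 28 with 1-S, and between the compounds only RRM2, the small subunit of ribonucleotide reductase, was called, in edgeR and not in DESeq2 or with the dark vehicle as the reference. RRM2 was at 80.0, 59.2, 70.7 and 44.8 FPKM in round 1 and at 27.6, 34.0, 6.63 and 7.59 in round 2. The list's median difference was 0.22 from the own libraries and -0.10 in the fit, and the irradiated vehicle of round 1 was below its dark vehicle by a median of 0.52 over the list. ID1, an inhibitor of differentiation factors named here after its values were seen, was at 32.1, 24.4, 26.0 and 6.19 FPKM in round 1 and at 37.1, 35.7, 42.6 and 41.1 in round 2, and was low in the library with 1-SO and UV-A only.

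Of the 163 genes higher with 1-SO than with 1-S, 150 were called lower with 1-S against its vehicle and 13 called higher with 1-SO. Over all genes tested, these shares were 13.7% and 4.47%. Of the 288 lower ones, 238 were called higher with 1-S and 45 called lower with 1-SO, beside 13.8% and 7.05% of all genes tested. The genes were picked with the same compound libraries, so much of this overlap follows from the choice and it tests nothing. TGOLN2, a cycling protein of the trans-Golgi network, was at 61.8, 62.8, 62.3 and 55.1 FPKM in round 1 and at 71.7, 66.4, 19.4 and 15.8 in round 2, a fitted difference of 1.90 ± 0.26 (log2, SE; edgeR adjusted p = 3.2e-05). ITGA2, the collagen-binding integrin chain α2, was at 71.5 and 74.1 FPKM with vehicle and 1-SO and at 73.8 and 22.7 with vehicle and 1-S. CD59, a membrane inhibitor of complement, was at 144 and 136 FPKM in round 1 and at 64.4 and 19.2 in round 2. LNPEP, a membrane aminopeptidase, was at 10.6 and 11.7 FPKM in round 1 and at 10.9 and 3.50 in round 2. IGF2R, the receptor that carries lysosomal enzymes, was at 37.1 and 47.9 FPKM in round 1 and at 24.1 and 10.8 in round 2. TMEM165 and APMAP, both membrane proteins, showed the same order, with fitted differences of 1.59 and 1.32.

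By the words of their deposited descriptions (transmembrane, receptor, solute carrier, integrin or glycoprotein), 26.4% of the 163 genes higher with 1-SO encode such proteins, compared with 4.51% of the 288 lower ones and 7.31% of all genes tested. These words were chosen after the genes were seen, and no test was made. The higher genes also had more exons in their longest GENCODE transcript (median 10, against 6 for the lower genes and 7 for all genes) and a longer span (42.9 kb, 19.2 kb and 29.2 kb). They were more abundant too: the lower of the irradiated vehicle values had a median of 13.8, 4.24 and 6.08 FPKM in the same order. The part of abundance in these shares was not tested. Of 33 matrix and protease genes, 4 were called higher with 1-SO (ITGA2, ITGB1, PLAT and MMP1) and 1 lower (COL1A1), with medians of -0.35 (1-SO) and -0.89 (1-S). ITGB1, the integrin chain β1, was at 317 and 276 FPKM with vehicle and 1-SO and at 257 and 94.6 with vehicle and 1-S, and lost its call with median-of-ratios scaling (edgeR adjusted p = 0.0621). H1F0, the replacement linker histone, was at 125 and 209 FPKM in round 1 and at 230 and 115 in round 2. KRTAP2-3, of a keratin-associated family with close copies, was at 4.61 and 7.31 FPKM in round 1 and at 2.84 and 0.479 in round 2, and DESeq2 did not call it (adjusted p = 0.747).

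**Figure D4:**
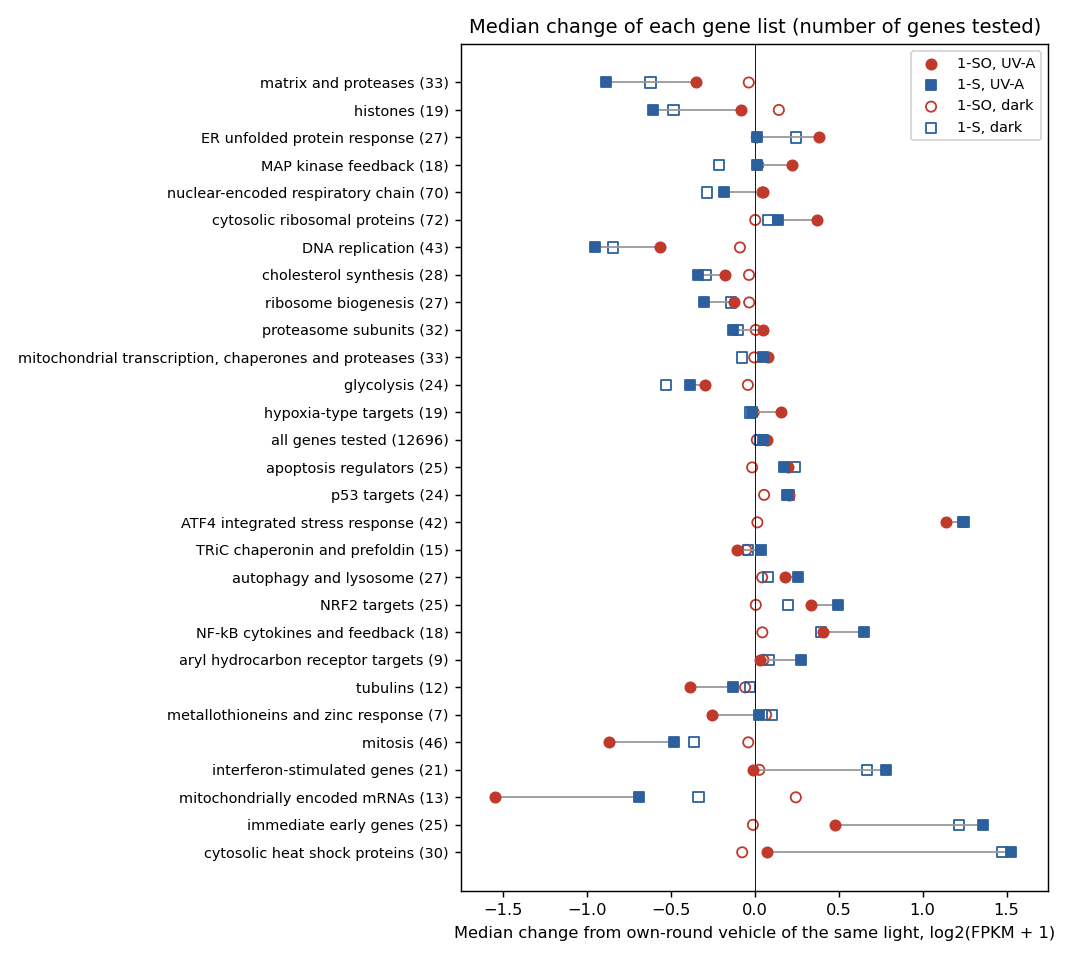
Median change of each gene list from the own-round vehicle of the same light, log2(FPKM + 1), with 1-SO (red circles) and 1-S (blue squares), filled for UV-A and open for the dark, ordered by the difference under UV-A. Heat shock genes sit at 0.07 with 1-SO and 1.53 with 1-S, the ATF4 list at 1.14 and 1.24, and mitochondrially encoded mRNAs at -1.55 and -0.69.

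Genes called against vehicle in opposite directions numbered 4. SLC1A4, a transporter of neutral amino acids (chr2:64988477-65023865, GRCh38), was at 8.88, 7.45, 8.65 and 21.9 FPKM in round 1 and at 6.76, 7.21, 4.88 and 4.67 in round 2. In round 1 it was highest with 1-SO and UV-A, and both 1-S libraries were below their vehicles. The fitted difference was 1.95 ± 0.26 (log2, SE; edgeR adjusted p = 2.04e-05). FKBP14, an ER prolyl isomerase, was at 8.63 and 14.1 FPKM in round 1 and at 8.33 and 5.75 in round 2, and DESeq2 did not call it (adjusted p = 0.0844). KLF2, a zinc-finger factor, was at 25.3 and 15.4 FPKM with vehicle and 1-SO and at 31.4 and 54.6 with vehicle and 1-S. SOCS3, a feedback inhibitor of cytokine signalling, was at 23.0 and 17.0 FPKM in round 1 and at 22.4 and 35.7 in round 2.

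At the other end, 160 genes were called with both compounds, at least 2-fold in the same direction. The 8 with the smallest own-library difference were CEBPG, DKK1, APLN, LINC00467, ERN1, AC003092.1, IER2 and FAM20C. They were chosen for a small difference in these libraries, so their values describe them and test nothing. DKK1, a secreted Wnt inhibitor, was at 283 and 127 FPKM with vehicle and 1-SO and at 120 and 54.1 with vehicle and 1-S, a difference of -0.13 (95% interval -0.66 to 0.39). ERN1, the ER stress sensor IRE1α, was at 6.38 and 17.4 FPKM in round 1 and at 3.0 and 8.85 in round 2, a difference of 0.21 (-0.35 to 0.78). IER2, an immediate early gene, differed by -0.22 (-0.73 to 0.30), and FAM20C, a secretory pathway kinase, by -0.27 (-0.84 to 0.31). The intervals were wider for the low genes APLN (-2.49 to 0.26), LINC00467 (-0.11 to 1.95) and AC003092.1 (-1.86 to 2.94), the last of which had 2 reads in the irradiated vehicle of round 1.

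Among the remaining programmes, no gene was called between the compounds under UV-A in the ER unfolded protein response (27 tested), proteasome subunits (32), cytosolic ribosomal proteins (72), glycolysis (24), cholesterol synthesis (28) or metallothioneins (7). In the same order 7, 2, 0, 0, 4 and 3 genes had an unadjusted p under 0.05 in edgeR, beside 1906 of all 12696 genes tested. DESeq2 called 1 gene, in the first list. Over all genes tested, 1.28% were called higher and 2.27% lower with 1-SO. At those shares lists of this size would hold few calls or none. HSPA5, the ER chaperone BiP, was at 297 and 603 FPKM with vehicle and 1-SO and at 319 and 1219 with vehicle and 1-S, a difference of -0.94 (95% interval -1.68 to -0.19; edgeR adjusted p = 0.183). It had the lowest own-library difference of the ER list, -0.91, and most of the list went the other way. Of the 27 genes, 23 were above 0 and 4 below, with a median difference of 0.36. Some genes were called among p53 targets (5 of 24 lower with 1-SO: GADD45A, GADD45B, CCNG1, PLK2 and PMAIP1) and apoptosis regulators (2 of 25 lower, PMAIP1 and BID). Others were called among NRF2 targets (1 higher and 2 lower of 25) and MAP kinase feedback genes (2 higher and 3 lower of 18). DESeq2 called 1 p53 target, 0 apoptosis regulators, 1 NRF2 target and 3 MAP kinase feedback genes. EPHA2, a receptor tyrosine kinase of the last list, was at 228 and 161 FPKM in round 1 and at 266 and 71.5 in round 2, and lost its call with the dark vehicle as the reference (edgeR adjusted p = 0.0527).

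Some differences rest on an irradiated vehicle, and the calls of CYP1B1, SLC7A11 and IGFBP7 ended in DESeq2. CYP1B1, an aryl hydrocarbon receptor target, was at 5.91, 25.7, 7.52 and 45.6 FPKM in round 1 and at 7.19, 6.15, 6.62 and 6.25 in round 2. Vehicle with UV-A was already high in round 1 and not in round 2, and the fitted difference of 1.90 exceeds the own-library difference of 0.78. SLC7A11, the cystine importer, was at 8.44, 21.0, 9.72 and 67.5 FPKM in round 1 and at 16.6, 15.9, 50.1 and 34.2 in round 2, with a fitted difference of 1.20 and an own-library difference of 0.57. MMP1, an interstitial collagenase, had a fitted difference of 1.80 and an own-library difference of 0.59. IGFBP7, a secreted IGF-binding protein, was at 56.8, 26.5, 52.8 and 24.7 FPKM in round 1 and at 93.8, 93.1, 27.7 and 26.3 in round 2, so both irradiated libraries of round 1 were low. NOP2 was called, but it was at 20.8 to 24.6 FPKM in round 1 and at 0.302 FPKM or below in round 2, a gap between rounds that the vehicles share.

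Without light the compounds stood further apart. In the dark, edgeR called 1067 genes higher (8.4%) and 1114 lower (8.77%) with 1-SO than with 1-S, and 902 genes differed by at least 2-fold (343 higher, 2.7%, and 559 lower, 4.4%). Under UV-A the number was 490 (172 higher, 1.35%, and 318 lower, 2.5%), and with the dark vehicles as the reference it was 579 (276 higher and 303 lower). The spread of changes over genes was 0.16 (SD) with 1-SO and 0.57 with 1-S in the dark, and 0.41 and 0.60 under UV-A. The difference changed with light in 554 genes by edgeR, 215 upward (1.69%) and 339 downward (2.67%). By the size of the own-library difference on log2(FPKM + 1), whatever its sign, 455 of these were smaller under UV-A than in the dark and 99 larger. Smaller in size includes differences that reversed: that of MT-ND6 went from 2.02 in the dark to -0.93 under UV-A, and that of MT-ND3 from 1.12 to -1.04. Both comparisons share vehicle libraries in the fit, which has 1 light term for the vehicles of both rounds. Against the vehicles of its own round and light on log2(FPKM + 1), the change had the same sign in 551 of the 554 genes and reached 1 in 186, and in 346 the fitted change was at least 1.5 times as large or of the other sign.

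**Figure D5:**
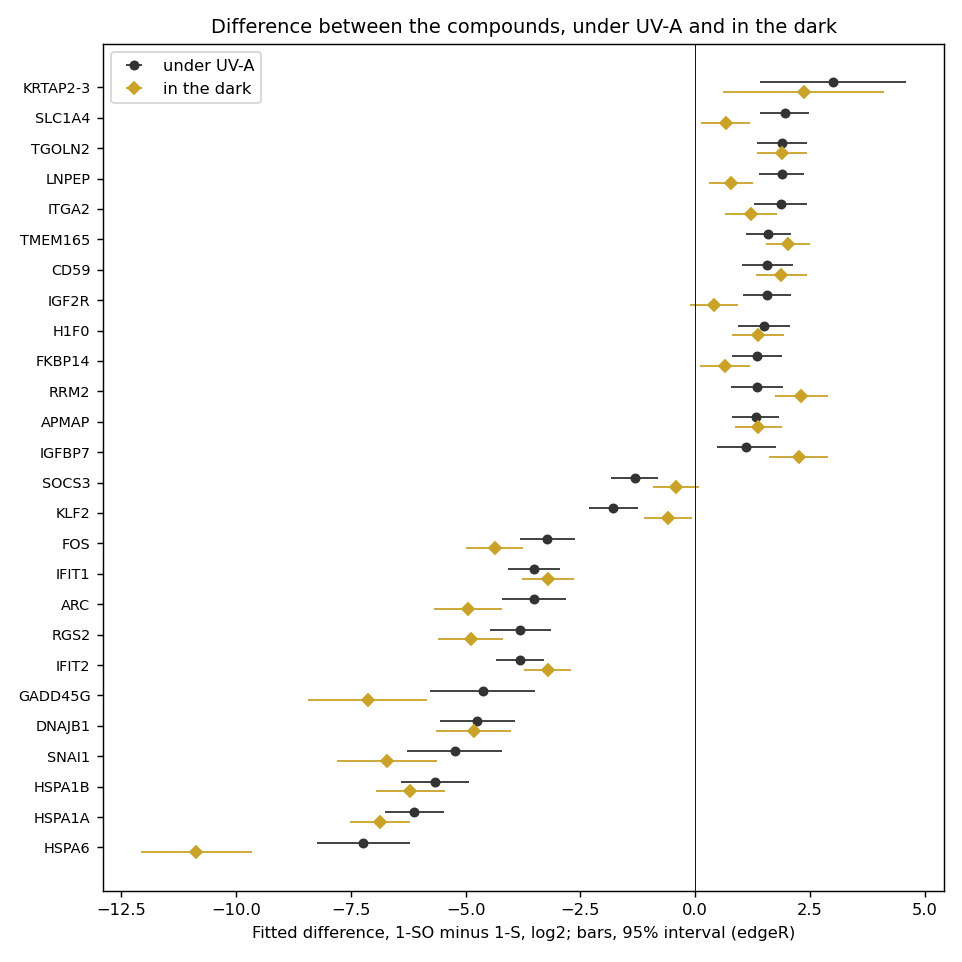
Fitted difference, 1-SO minus 1-S (log2), of 26 genes under UV-A (black circles) and in the dark (yellow diamonds), with 95% intervals from edgeR. The difference of TGOLN2 is 1.90 in both, that of DNAJB1 -4.82 in the dark and -4.74 under UV-A, that of HSPA6 goes from -10.86 in the dark to -7.22, and that of SLC1A4 from 0.67 to 1.95.

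By programme, the change with light was uneven. Among the ATF4 targets, 27 of 42 were called lower with 1-SO without light against 8 with UV-A, and the change itself was called in 21, all upward. Among the DNA replication genes, 33 of 43 were called higher with 1-SO in the dark and 1 under UV-A, with the change called in 28, all downward. Among the mitochondrially encoded mRNAs, 3 of 13 were called higher with 1-SO in the dark, and the change was called in 9, all downward. Among the heat shock genes, 22 of 30 were called lower with 1-SO without light and 25 with UV-A. The change was called in 2, HSPA6 and DNAJB2, towards a smaller difference in both, by 3.63 and 1.10 in the fit. For HSPA6 the own-round difference went from -8.84 to -7.66.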

How the data were processed

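Poly-A RNA of 8 MDA-MB-231 libraries was sequenced in 2 rounds. The authors deposited raw read counts and FPKM values per gene for each round, and tables of their own comparisons with log2 fold changes and adjusted p-values. Per the submitters' processing notes edgeR 3.16.5, DESeq2, HTSeq 0.6.1, STAR-Fusion, TopHat and STAR 2.5 were among the tools and hg19 and hg38 the builds, and their roles are not given in the sources used here. Per the file headers round 1 carries other gene coordinates and lengths than round 2, so changes were taken within a round, and FPKM levels set across rounds are descriptions. FPKM recomputed from counts and lengths matched the deposited FPKM for 100% of genes.

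Rounds were joined on gene identifier (45341 shared). The 12696 genes with at least 1 FPKM in 2 libraries were fitted with edgeR 4.0.16 (quasi-likelihood, TMM scaling, R 4.3.3) over all 8 libraries with 7 coefficients: the intercept, round, light in the vehicle and the 4 compound libraries. This left 1 residual degree of freedom, and the prior held 26. The biological coefficient of variation was 12.0%. P-values were adjusted by Benjamini-Hochberg at 0.05. Changes on log2(FPKM + 1) used a pseudocount of 1, understate the change of low genes and carry no test. Counts of 12696 genes were simulated for the comparison under UV-A, with a coefficient of variation of 12.0% for every gene and no light effect in the vehicles. The changed genes were drawn from those averaging over 100 reads. Changed genes with fewer reads, and vehicles whose light response differs between rounds, were therefore not covered. In this setting 33 of 100 genes changed 2-fold and 97 of 100 changed 4-fold were recovered, with 1 false call. A low count of calls therefore leaves room for many differences near 2-fold.

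The labels name the round of each vehicle, so vehicles were paired by round; across genes the round difference in the dark and under UV-A correlated with r = 0.86. The compounds, gene lists and alternatives were chosen with earlier results of these data known. Genes named are, by rule, the 12 most positive and 12 most negative own-library differences among called protein-coding genes with at least 5 FPKM in an irradiated library, up to 4 called genes per list (otherwise the 2 most abundant), the 8 most alike, those called in opposite directions, and genes whose irradiated vehicles carry the difference; further list members are named where counts are given. Alternatives were DESeq2 1.42.0, limma 3.58.1, other scaling, filters, pseudocounts and references, and no round term. The authors' heat map tables were not used, and a few genes named by rule are not reported here.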

Additional observations from a re-analysis of the deposited data

Results flagged for a closer look

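The difference between the compounds changed with UV-A in 554 genes by the edgeR test of the change itself, and 8 of the genes with the largest or opposite differences were among them. For HSPA6 the difference of 1-SO minus 1-S rose by 3.63 on the log2 scale from dark to UV-A (edgeR adjusted p = 0.00025), with the 1-SO library at 0.319 FPKM in the dark and 4.47 with UV-A. Against the vehicles of its own round on log2(FPKM + 1), which understates low genes, the change was 1.18. In the fit it was 2.5 for GADD45G (adjusted p = 0.00866), 1.43 for ARC (adjusted p = 0.0254) and 1.15 for FOS (adjusted p = 0.0408), each towards a smaller difference in edgeR. Against own-round vehicles these changes were 1.39 for GADD45G, 0.11 for ARC and 0.33 for FOS. In round 1 the vehicle rose with light by 0.61 for HSPA6, 1.12 for ARC and 1.16 for FOS. In round 2 it changed by -0.22, -0.12 and 0.41 in the same order, where the fit takes 1 light change for both rounds. The fitted changes of these genes, 3.63 for HSPA6 among them, therefore also hold the gap between the vehicles of the rounds. For SLC1A4 it was 1.28 (adjusted p = 0.0126), for IGF2R 1.16 (adjusted p = 0.0232) and for LNPEP 1.11 (adjusted p = 0.0179), each towards a larger difference in edgeR. Their own-round changes were 1.60, 1.05 and 0.76. For KLF2 it was -1.19 (adjusted p = 0.0203; own-round change -0.62), where 1-SO went from 28.0 to 15.4 FPKM and 1-S from 47.3 to 54.6 FPKM. Each compound and light state is 1 library, and light and plate cannot be told apart.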

How the results depend on the processing

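Genes called under UV-A numbered 451 in edgeR and 325 to 561 with limma, median-of-ratios scaling, other filters, a scale without mitochondrial and heat shock genes, or the vehicle of the own round, irradiated or dark, as the only reference. DESeq2 called 133 under UV-A, 634 in the dark (2181 in edgeR), 112 for the change with UV-A (554), 471 for 1-SO (1462) and 1463 for 1-S (3488). In the dark, the own-round vehicle alone gave 1111. Without the round term (no replicate block) the counts were 0 under UV-A, 0 in the dark, 0 for the change and 0 for 1-SO, with 1138, 2387, 477 and 1515 genes at an unadjusted p under 0.05, and 16 for 1-S. The split of calls moved by over 10 percentage points with limma: 152 higher and 173 lower under UV-A, 221 and 193 for the change, 777 and 597 for 1-SO. Genes at least 2-fold apart under UV-A numbered 490, 1125 with a pseudocount of 0.1, 127 with 5, 279 above 5 FPKM, 1197 on log2 CPM and 2845 without vehicles and so without the block. Leaving out a dark vehicle could not move the count of 490, which does not use it. Leaving out either irradiated vehicle gave the same counts as the dark vehicles as the reference. These were 579 genes, 276 higher and 303 lower, against 172 and 318, and light in the vehicle is then not removed. No such test could be fitted for the counts of calls, since leaving out a vehicle leaves no residual degrees of freedom. Heat shock genes lower with 1-SO numbered 21 to 25 under every setting with the round term. Of the genes named by rule, the difference of NOP2 became 5.40 and that of IGFBP7 -0.59 without the round term, and no other called gene changed sign. The 97 genes named by rule include genes that edgeR did not call under UV-A, such as the most alike, and these had no call to lose. Among the called ones, the call ended in 27 with DESeq2, 15 with the own-round vehicle and 14 with limma. It ended in 11 with the own-round dark vehicle, 9 with median-of-ratios scaling and 2 with the scale without mitochondrial and heat shock genes. The direction was kept in each. Without the round term, which left no calls, 68 lost the call with the direction kept and 2 changed sign. Without 259 genes whose vehicles differed over 10-fold between rounds, an alternative chosen after seeing the data, 443 calls were left under UV-A. With 1 library per compound, depth and the absence of replicates limit what differences under about 2-fold can show.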

Other observations

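Secreted factors of other lists differed gene by gene. LIF, a cytokine of the IL-6 family, was at 16.1 and 18.7 FPKM with irradiated vehicle and 1-SO and at 19.0 and 8.82 FPKM with irradiated vehicle and 1-S, a fitted difference of 1.26 (edgeR adjusted p = 0.00242). TNFAIP3, which ends NF-kB signalling, was at 1.34 and 1.96 FPKM in round 1 and at 0.937 and 5.37 FPKM in round 2. IL6 was at 0.662 and 0.531 FPKM in round 1 and at 0.444 and 2.08 FPKM in round 2, on 16 reads in the irradiated vehicle of round 1. Of the 18 genes of NF-kB cytokines and feedback tested, 1 was called higher and 2 lower with 1-SO in edgeR and none in DESeq2 (LIF adjusted p = 0.0565). ADM, the vasodilator adrenomedullin, was at 23.0 and 26.2 FPKM in round 1 and at 16 and 81.0 FPKM in round 2, and 2 of 19 hypoxia-type targets (ADM and P4HA2) were called lower with 1-SO, P4HA2 not in DESeq2 (adjusted p = 0.374).

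TUBA1A, an α-tubulin, was at 80.3 and 58.9 FPKM in round 1 and at 45.9 and 75.5 FPKM in round 2, the 1 gene called of 12 tubulins. TCP1, a subunit of the cytosolic chaperonin TRiC, was at 96.8 and 86.9 FPKM in round 1 and at 60.8 and 97.7 FPKM in round 2, the 1 gene called of 15 of its list. DESeq2 called neither (adjusted p = 0.269 and 0.0789).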
